A study of Homo sapiens with 22 samples.

Results

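The HOX cluster genes are the genes whose symbol is HOX followed by A, B, C or D and a paralog number, taken from the gene identifiers of the deposited table without antisense genes or pseudogenes. The rule found 30 of 36859 genes, with 11 in HOXA, 8 in HOXB, 6 in HOXC and 5 in HOXD. No row carried the symbol HOXB4, HOXB9, HOXC8, HOXC12, HOXC13, HOXD1, HOXD4, HOXD9 or HOXD13. Sums and shares by cluster leave these genes out, and their levels are not known here. They were measured by stranded mRNA sequencing in 22 libraries, 11 groups of 2, of RPTEC, a human renal proximal tubule epithelial line immortalized with hTERT. The groups were WT cells, WT cells given TGF-β at 10 ng/mL for 72 h, KO1 and KO2 (each 1 clone with CRISPR frameshifts on both alleles of SETD2), libraries labelled KO2 rescue, Rescue1 and Rescue2 (single-cell clones of KO cells carrying lentiviral FLAG-tagged full-length SETD2 under blasticidin, whose parental clone the labels do not name and which was taken as KO2 from the study's sample names), and WT lines transduced in bulk with lentiviral eGFP, SOX2, OCT2 or PRRX1 under puromycin. Serum was 2% for WT, TGF-β, KO1, KO2 and the libraries labelled KO2 rescue and 10% for Rescue1, Rescue2 and the transduced lines, so serum and group cannot be told apart where these are compared. Nothing in the labels says that the 2 libraries of a group came from separate cultures, so p-values measure the spread between these libraries, which may be technical.

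HOX genes encode homeodomain transcription factors that set positional identity along the body axis. In each cluster the genes lie in a row on 1 strand in the order of their paralog numbers, low numbers being used anterior and high numbers posterior in the embryo, and adult cells, kidney epithelium among them, keep part of the pattern of the place they came from. HOX proteins bind DNA together with TALE homeodomain partners of the PBX, MEIS and PKNOX families, Polycomb and Trithorax complexes hold the clusters silent or active, and retinoic acid receptors act on them in the embryo. SETD2 is the methyltransferase that places H3K36me3 on transcribed gene bodies.

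On GRCh38 the members of HOXA span chromosome 7 from 27092993 to 27200091 and those of HOXB chromosome 17 from 48528526 to 48728750, both on the minus strand. The members of HOXC span chromosome 12 from 53973126 to 54056030 and those of HOXD chromosome 2 from 176099795 to 176173102, both on the plus strand. RefSeq promoter sequences of GRCh38.p14 were matched for 17 of the 30 members. The 250 bases before the transcription start are shown for the neighbours HOXD10 and HOXD11, the members that gained most counts in KO1, and for HOXD12 and HOXB1, which were silent or nearly so in these cells. Capitals mark motifs searched on both strands, namely the TATA box (TATAAA), the CCAAT box, the GC box (GGGCGG), the SMAD motif (CAGAC) and the PBX-HOX motif (TGATNNAT).
HOXD12, chr2:176099545-176099794, plus strand: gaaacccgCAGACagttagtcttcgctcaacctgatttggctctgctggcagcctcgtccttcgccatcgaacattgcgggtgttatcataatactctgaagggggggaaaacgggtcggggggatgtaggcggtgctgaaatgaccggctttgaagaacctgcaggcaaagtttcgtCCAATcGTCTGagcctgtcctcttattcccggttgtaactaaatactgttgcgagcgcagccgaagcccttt
HOXD11, chr2:176107030-176107279, plus strand: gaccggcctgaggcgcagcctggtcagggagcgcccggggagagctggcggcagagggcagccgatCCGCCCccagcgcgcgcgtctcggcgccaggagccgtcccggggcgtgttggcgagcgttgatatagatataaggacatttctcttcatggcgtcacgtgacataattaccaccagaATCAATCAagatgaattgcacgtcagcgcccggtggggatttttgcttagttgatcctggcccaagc
HOXD10, chr2:176116528-176116777, plus strand: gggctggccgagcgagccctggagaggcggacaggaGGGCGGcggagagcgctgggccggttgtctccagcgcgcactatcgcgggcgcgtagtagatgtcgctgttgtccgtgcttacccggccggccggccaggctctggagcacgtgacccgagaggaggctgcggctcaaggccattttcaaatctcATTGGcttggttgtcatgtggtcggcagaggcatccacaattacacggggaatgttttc
HOXB1, chr17:48531012-48531261, minus strand: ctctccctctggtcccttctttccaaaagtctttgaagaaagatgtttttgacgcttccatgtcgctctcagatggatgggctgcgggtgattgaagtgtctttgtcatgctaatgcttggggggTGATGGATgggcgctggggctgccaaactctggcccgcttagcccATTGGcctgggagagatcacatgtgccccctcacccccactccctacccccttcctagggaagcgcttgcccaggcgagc

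The windows of HOXD10 and HOXD11 each held 23 CpG dinucleotides, that of HOXD12 held 16 and that of HOXB1 held 7. HOXC4 and HOXC5 have the same window in the table, so the 17 hold 16 different windows. The median was 20 over the 17 member promoters and 11 over 27305 promoters of all genes, 1 for each gene. The CCAAT letters were found in 14 of the 17 member windows, 13 of the 16 different ones, where 33.0% of all promoters held them. The GC box was in 8 (42.3% of all), the SMAD motif in 5 (37.8%), the TATA box in 3 (11.1%) and the PBX-HOX motif in 3 (6.69%). HOXD11 held a GC box and a PBX-HOX match, HOXD10 a GC box and a CCAAT match. HOXB1 held a CCAAT and a PBX-HOX match, HOXD12 a CCAAT and 2 SMAD matches. These are matches of letters and not measured binding, and the member windows differ from others in CpG content.

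Levels are normalized counts, that is reads scaled by the authors' size factors and recovered from the deposited log2 values. A library held 11674491 to 16758645 of them, and 1 read was worth 0.806 to 1.59 normalized counts. SETD2 mRNA stood at 1852 and 2061 in WT, at 1046 to 1130 in KO1 and KO2, at 820 and 834 in the libraries labelled KO2 rescue and at 9764 to 10445 in Rescue1 and Rescue2. A frameshift need not lower mRNA, but the libraries labelled KO2 rescue showed no added SETD2, unlike both rescue clones. Of 10 renal tubule markers 7, PAX2 and PAX8 among them, were above 0 in all 22 libraries, while CDH1 was at 0 in 8 and at most 58.0. Of 7 fibroblast genes 4 were above 0 in all as well. The renal tubule list summed to 23233.6 to 25200.7 in WT and 12304.5 to 12822.4 in KO1. The sum was 17625.2 to 18350.8 in KO2 and 29526.8 to 32873.9 in Rescue1 and Rescue2. EPCAM was at 3050 and 2764 in WT and 296 and 218 in KO1. Of 7 proximal tubule markers CUBN, GGT1 and ANPEP were above 0 in all, and LRP2, the endocytic receptor of the proximal tubule, was at 0 in 20 libraries and at most 2.29 in the other two. Of the 4 leukocyte markers CD3E was at 0 in 22 libraries and CD68 was above 0 in 21 (at most 364). The 4 summed to 106 to 147 in WT, 210 to 368 in KO1, 147 to 196 in KO2 and 0 to 56.9 in Rescue1 and Rescue2. Of the 4 endothelial markers PECAM1 was at 0 in 19 libraries, and the sum was 4.99 to 40.3 in WT, 126 to 142 in KO1, 148 to 154 in KO2 and 8.77 to 126 in the rescue clones. CD68 made all of the leukocyte sum in WT (147 and 106). KDR made most of the endothelial sum in KO1 (123 and 103) and KO2 (145 and 126), and CDH5 in Rescue1 (68.7 and 83.8). All libraries came from the same epithelial line, so these sums are levels of genes and not counts of cells. The part of these markers in the HOX values was not tested. WT replicate 1 stood apart from WT replicate 2 in COL1A1, at 11919 against 532, so values against WT are also given without it where a call depends on it. In bulk RNA, fewer cells that express a gene and less RNA per cell cannot be told apart.

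In WT cells the counts of the members came mainly from HOXB, HOXA and HOXD, with the HOXC members low. The summed level of the members in WT was 3780 normalized counts for HOXB, 3010 for HOXA, 1667 for HOXD and 422 for HOXC. Per kilobase of transcript, HOXB3 stood first at 421 ± 35.3 (SD, n = 2), followed by HOXA9 at 399 ± 21.9, HOXB7 at 398 ± 17.5 and HOXD10 at 384 ± 21.3. Neighbours in this order differed by no more than their spread. HOXA3, which acts in the pharyngeal region of the embryo, followed at 324 ± 5.34, below HOXD10 by more than the spread of either. HOXB6 (277 ± 31.9), HOXB2 (275 ± 46.6), HOXB8 (231 ± 11.3), HOXD11 (228 ± 10.1), HOXB5 (222 ± 6.83) and HOXA4 (195 ± 25.3) formed a middle tier in which neighbours overlapped. In HOXC the highest mean was that of HOXC10, a posterior gene, at 64.0 ± 24.0 per kilobase. HOXC9 (60.7 ± 31.2), HOXC6 (51.1 ± 11.8) and HOXC4 (41.8 ± 3.30) lay within its spread.

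The members expressed at high levels thus came from low, middle and high paralog numbers alike. Some members toward the ends of the clusters were near the floor. HOXA13, which patterns the distal limb and hindgut, was at 12.0 and 19.7 normalized counts in WT, and HOXB13, known from prostate, at 8.93 and 4.98. HOXA5, which acts in lung development, was at 0 in both WT libraries although its neighbours HOXA4 and HOXA6 were at 126 or above. HOXB1 was at 0 in all 22 libraries, and HOXD12 was above 0 in 5 libraries and never above 1.96. A count of 0 allows up to 2.42 to 4.78 normalized counts by library (3 reads, counting error only). HOXB1 and HOXD12 did not pass the minimum of 10 normalized counts in 2 libraries, which left 28 members, HOXA 11, HOXB 7, HOXC 6 and HOXD 4, among 14585 genes tested.

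**Figure D1:**
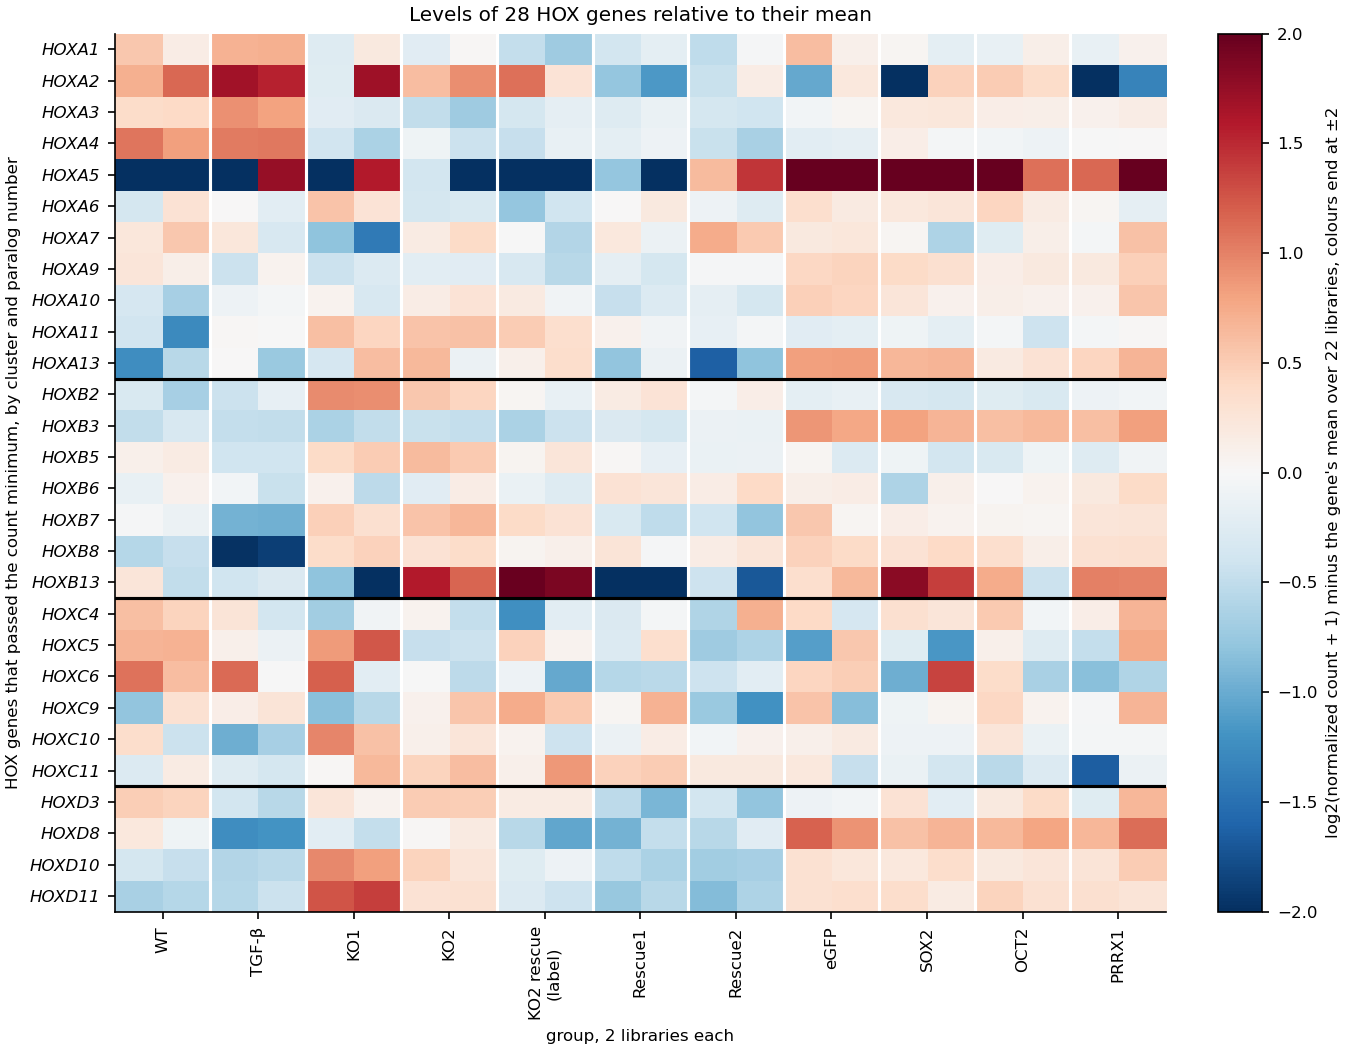
Levels of the 28 HOX genes that passed the count minimum (rows, by cluster and paralog number) in 22 libraries (columns, 2 for each group), as log2(normalized count + 1) minus the gene's mean over the libraries. HOXB8 is lowest in the TGF-β libraries, HOXD10 and HOXD11 highest in KO1, and HOXB3 and HOXD8 highest in the 4 transduced lines.

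Some neighbours share exonic bases in the annotation, so reads may have been divided between them by the authors' transcript quantification and their separate levels are uncertain. HOXD10 and HOXD11 shared 452 bases, 18.2% of the exonic bases of HOXD10 and 21.4% of those of HOXD11. The other pairs were HOXC4 with HOXC6 (484 bases), HOXB3 with HOXB6 (433) and HOXC6 with HOXC9 (73), and 23 members shared none. The read-through gene ENSG00000257184, which shares exons with HOXA9 and HOXA10, reached 15.7 normalized counts at most, and ENSG00000273049, which shares exons with HOXC5 and HOXC10, reached 13.6.

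TGF-β treatment asks what the classical inducer of epithelial-to-mesenchymal transition does to the HOX code. A gene was called when limma's moderated test put its Benjamini-Hochberg adjusted p below 0.05 and its log2 change passed 1 in either direction. With TGF-β, HOXB8 and HOXD8 were called lower and no member was called higher. The 2 of 28 lower calls (7.14%) compare with 4.26% of all tested genes lower, and the 0 higher with 3.58%. HOXB8, which blocks myeloid differentiation when overexpressed, was at 485 and 520 normalized counts in WT and at 183 and 195 with TGF-β. The groups were far apart, and the log2 change was -1.41 (SE 0.11, adjusted p = 4.85e-07). HOXD8 was at 314 and 256 in WT and at 114 and 118 with TGF-β. It fell by 1.28 on the log2 scale (SE 0.22, adjusted p = 0.000792).

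Some other members of HOXB and HOXD passed the adjusted p with smaller changes. HOXB7, at 559 and 525 in WT and 295 and 293 with TGF-β, changed by -0.88 (adjusted p = 0.000865), HOXB5 by -0.54 (adjusted p = 0.0194), and HOXD3 by -0.93 (adjusted p = 0.0215), all short of the fold threshold. HOXB6 (-0.23, adjusted p = 0.61) and HOXD10 (-0.16, adjusted p = 0.376) did not pass. In HOXA the direction differed. HOXA3 was at 970 and 993 in WT and at 1420 and 1314 with TGF-β, a log2 change of 0.48 (adjusted p = 0.00249), and HOXA11 changed by 0.84 (adjusted p = 0.0245). In all, 7 of 28 members (25%) passed the adjusted p at any fold, where 17.7% of all tested genes did. The summed level of HOXA was 1.16 times that of WT, and those of HOXB, HOXC and HOXD 0.797, 0.809 and 0.787 times. With only the 4 libraries compared in the fit, the adjusted p of HOXB8 was 0.0659 and that of HOXD8 0.09, and no member was called.

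Both KO clones were set against WT to follow loss of SETD2. They were isolated as clones after nucleofection and sorting, and WT was the parental line. Loss of SETD2 and the isolation of a clone therefore cannot be told apart. KO1 and KO2 shared lower HOXA4 and higher HOXA11, and HOXB2, HOXD10 and HOXD11 stood higher in KO1 than in KO2. In KO1, 4 of 28 members (14.3%) were called higher, HOXA11, HOXB2, HOXD10 and HOXD11, where 12.0% of all tested genes were. HOXA4 and HOXA7 were called lower, 2 of 28 (7.14%) where 13.1% of all were. In KO2 HOXA11 alone was called higher and HOXA4 alone lower, each 3.57% of the members, where 9.02% of all tested genes were called higher and 7.29% lower. At any fold, 11 of 28 members (39.3%) passed the adjusted p in KO1 against 39.8% of all tested genes, and 10 (35.7%) in KO2 against 28.9%. The shares of members called were near or below those of all genes in both clones. Both clones were compared with the same WT libraries. Without WT replicate 1 the members called numbered 7 in KO1, 4 in KO2 and 3 with TGF-β.

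HOXD11 belongs to the paralog group required for outgrowth of the embryonic kidney, and lies on chromosome 2 from 176104216 to 176109754. Its level was 376 and 401 in WT, 1419 and 1540 in KO1 and 723 and 730 in KO2. No library of either clone overlapped WT, and the level in KO1 stood above that in KO2. It rose by 1.93 on the log2 scale in KO1 (SE 0.12, adjusted p = 5.22e-09). In KO2 the change was 0.90 (SE 0.12, adjusted p = 2.83e-05), under the fold threshold.

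HOXD10, which acts in the posterior spinal cord and limb, lies next to it from 176108790 to 176119937. It was at 712 and 658 in WT, 1766 and 1597 in KO1 and 1233 and 1076 in KO2. The order of the groups was that of HOXD11, with which it shares exonic bases. KO1 gave a log2 change of 1.29 (SE 0.10, adjusted p = 1.38e-07), while KO2 gave 0.75 (adjusted p = 6.07e-05). HOXD8 and HOXD3, in the same cluster, gave -0.40 and -0.32 in KO1 and 0.04 and 0.03 in KO2, without passing the adjusted p. The summed level of HOXD was 2.17 times WT in KO1 and 1.49 times in KO2. Its share of the counts of all members was 18.4 to 19.1% in WT, 31.0 to 31.2% in KO1 and 23.5 to 24.5% in KO2.

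HOXA4, an anterior gene on chromosome 7 from 27128507 to 27130780, was at 359 and 299 in WT, 130 and 109 in KO1 and 160 and 126 in KO2. Both clones lay below both WT libraries. Against WT, KO1 differed by -1.45 (SE 0.19, adjusted p = 1.6e-05), and the change of KO2 was -1.20 (SE 0.19, adjusted p = 0.000151). HOXA3, its neighbour on the chromosome, was at 970 and 993 in WT, 640 and 613 in KO1 and 531 and 459 in KO2. Its log2 change of -0.65 in KO1 (adjusted p = 5.94e-05) was under the fold threshold, as was that of -0.99 in KO2 (adjusted p = 1.36e-06).

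HOXA11 acts in kidney, uterus and limb development and lies at the other end of the cluster, from 27181157 to 27185232. It was at 119 and 63.8 in WT, 236 and 209 in KO1 and 231 and 234 in KO2. Both clones lay above WT, and the WT libraries lay further from each other than those of either clone. The rise was 1.34 for KO1 (SE 0.24, adjusted p = 0.000379) and 1.41 for KO2 (SE 0.24, adjusted p = 0.000361). Without WT replicate 2 it was 0.90 and 0.97, under the fold threshold, and without WT replicate 1 it was 1.78 and 1.85. With only the libraries compared in the fit, its adjusted p was 0.123 in KO1 and 0.096 in KO2.

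HOXB2, which patterns the hindbrain, was at 518 and 407 in WT, 1244 and 1230 in KO1 and 938 and 865 in KO2. Each clone lay above WT. The log2 change in KO1 was 1.43 (SE 0.13, adjusted p = 3.37e-07), and that of KO2 was 0.97 (adjusted p = 2.89e-05). HOXB8, further along the cluster, was at 932 and 994 in KO1 and 880 and 929 in KO2. Its log2 changes were 0.94 (adjusted p = 4.87e-06) and 0.85 (adjusted p = 2.18e-05). HOXB3, between HOXB2 and HOXB8, gave -0.15 in KO1 and -0.06 in KO2, and neither passed the adjusted p. The summed level of HOXB was 1.36 times WT in KO1 and 1.34 times in KO2.

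HOXA7 was at 54.3 and 67.7 in WT, 25.9 and 16.6 in KO1 and 51.9 and 60.1 in KO2. It was low in KO1 and within the range of WT in 1 of the 2 KO2 libraries. The log2 change in KO1 was -1.50 (SE 0.39, adjusted p = 0.00682), and the adjusted p was 0.0511 without WT replicate 2 and 0.0569 without KO1 replicate 2.

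**Figure D2:**
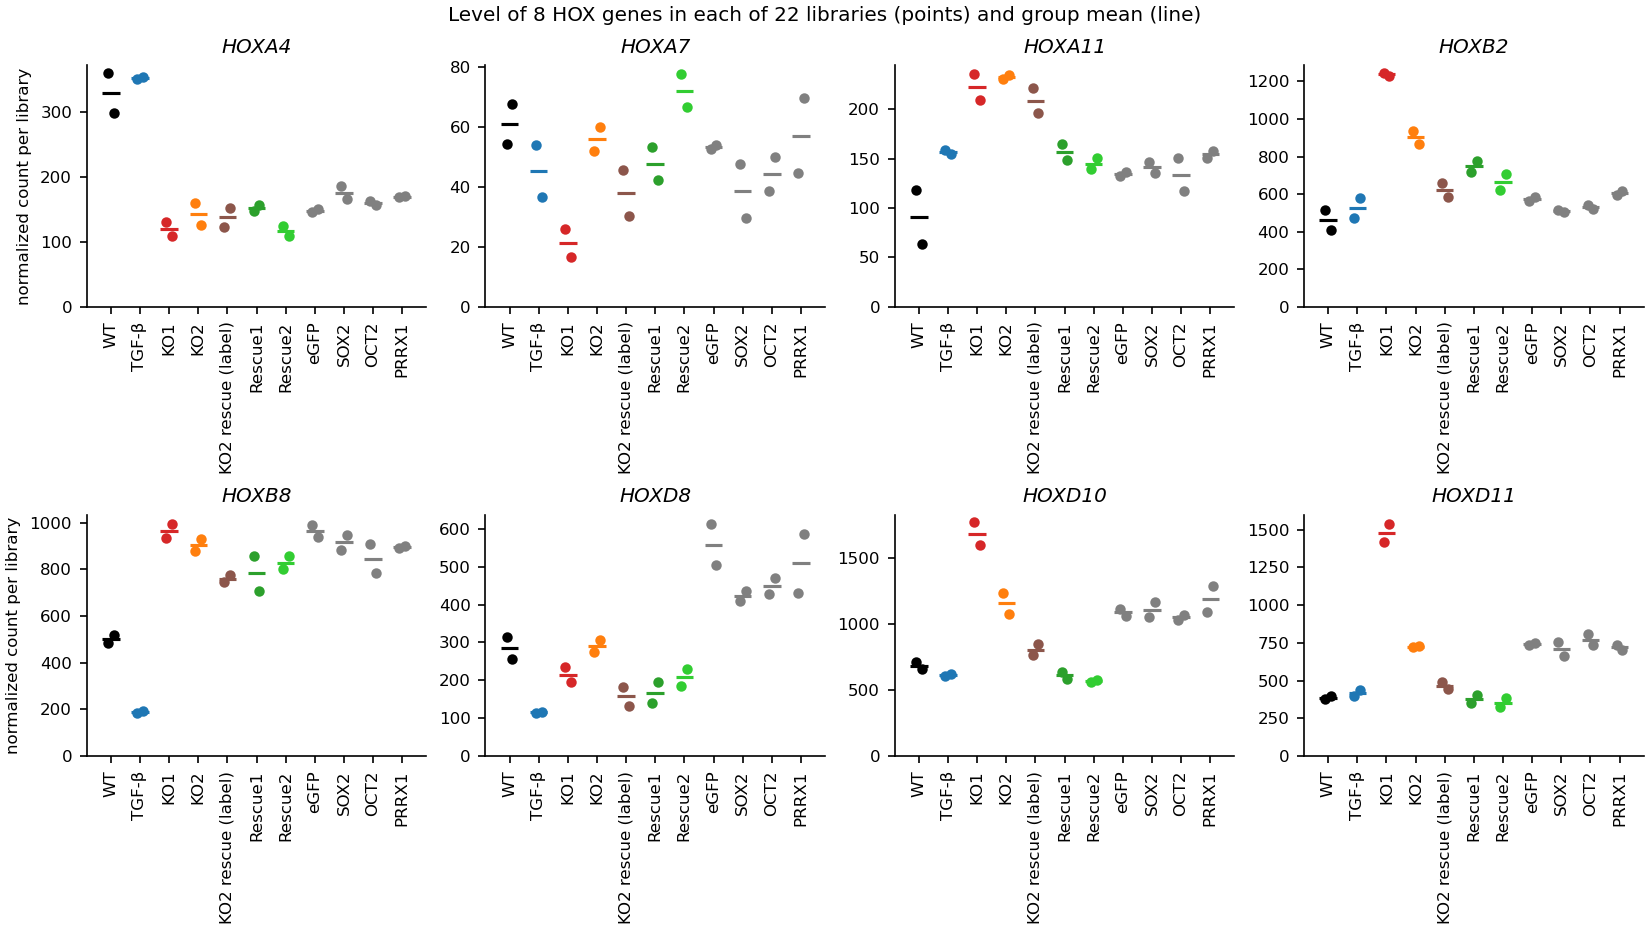
Normalized counts of the 8 members called with TGF-β or in a KO clone, in each library (points, 2 for each group) with the group mean (line). HOXB8 and HOXD8 are lowest with TGF-β, HOXD10 and HOXD11 are highest in KO1, and HOXA4 lies at 109 to 186 in every library outside WT and TGF-β.

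The changes were also read by position. By paralog number, the median log2 change in KO2 was -0.30 over the 8 members numbered 1 to 4 (6 of 8 below 0), 0.01 over the 10 numbered 5 to 8, and 0.73 over the 10 numbered 9 to 13 (9 of 10 above 0). In KO1 the medians were -0.35 (7 of 8 below 0), 0.34 and 0.60 (7 of 10 above 0). With TGF-β they were 0.15, -0.49 (9 of 10 below 0) and -0.02. Across genes, Pearson's r of the log2 change with paralog number was 0.59 over 28 members in KO2 (Spearman's rho 0.58) and 0.20 in KO1 (0.25), where HOXB2 was high and HOXB13 low. The genes share the same libraries, neighbours share exons, and the 3 comparisons share WT, so these values describe the libraries and carry no test. Many of the members behind them were not called.

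The median of all tested genes depends on scaling. With the same total in every library the shift was -0.20 for TGF-β, -0.39 for KO1 and -0.21 for KO2. The median of members numbered 9 to 13 then stayed above 0 in KO1 (0.20) and KO2 (0.50) and that of members 1 to 4 below 0 (-0.76 and -0.52), while that of members 5 to 8 went to -0.07 in KO1 and -0.21 in KO2, and that of members 1 to 4 with TGF-β to -0.09. The calls of HOXA11 and HOXD10 in KO1 were lost under that scaling, at 0.93 and 0.89, and the split of KO1 calls went from 4 higher and 2 lower to 2 higher and 5 lower.

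**Figure D3:**
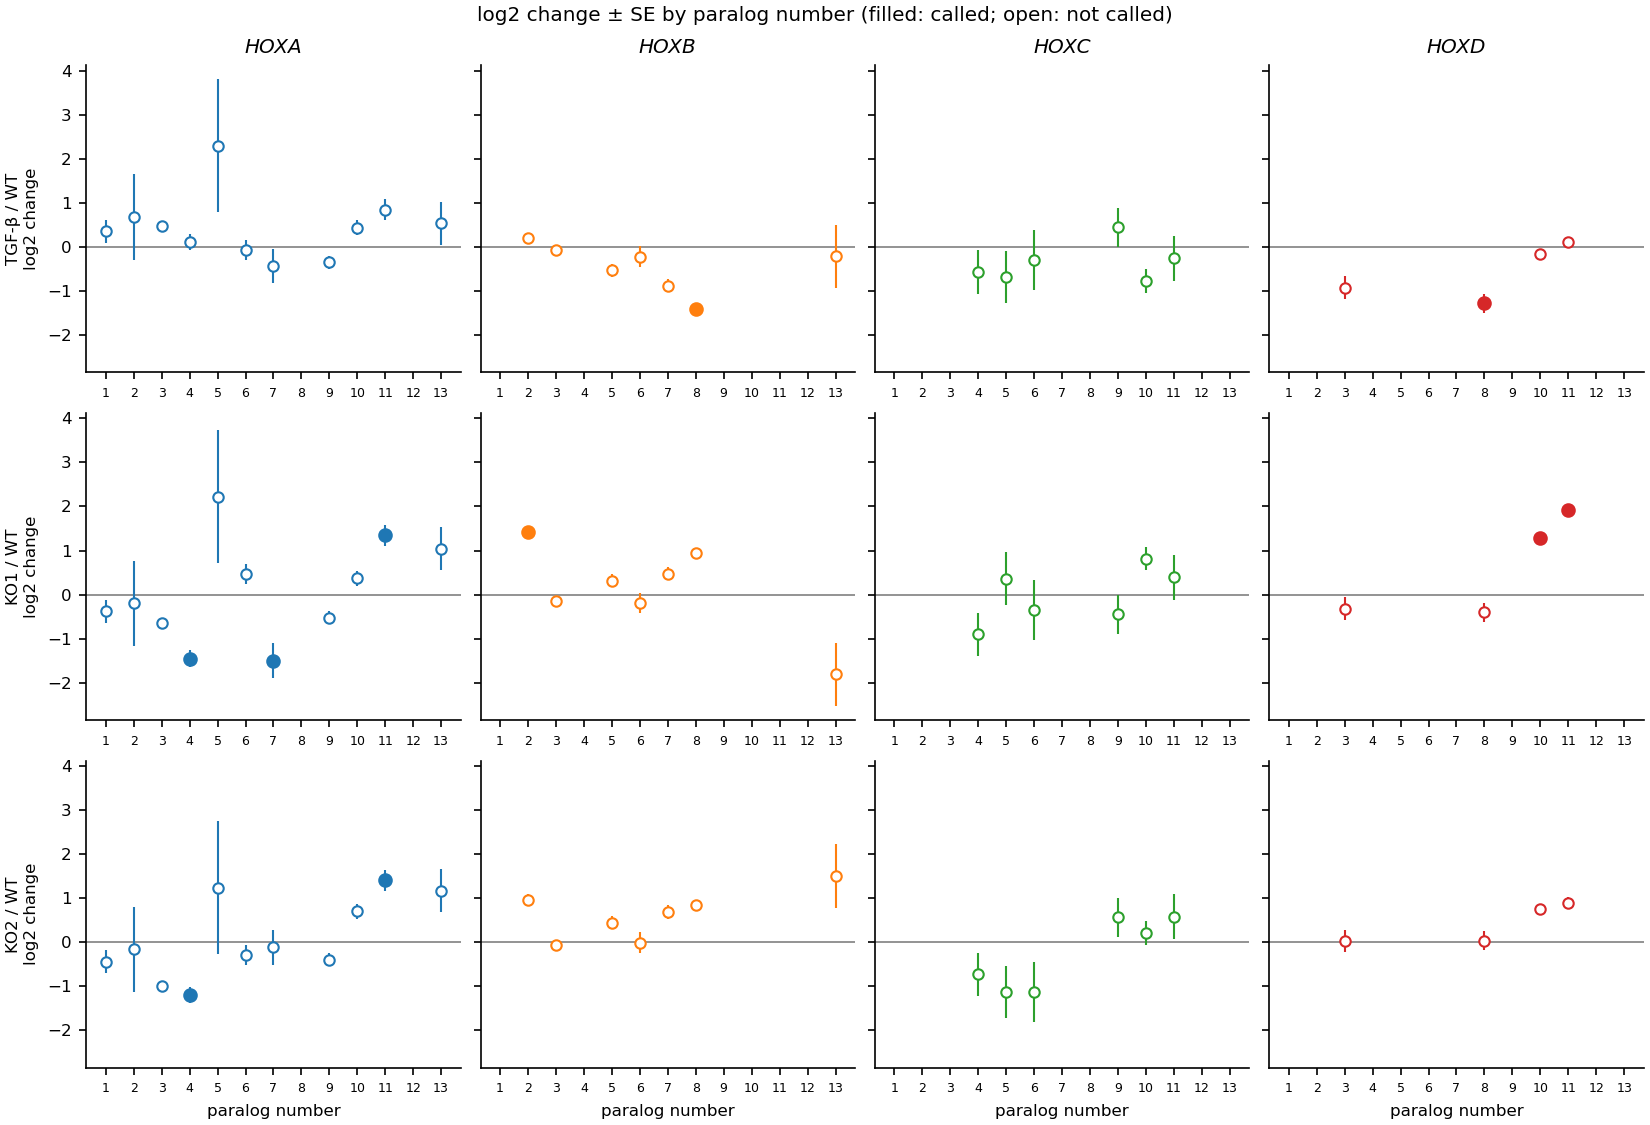
Log2 change ± SE of each tested HOX gene by cluster (columns) and paralog number (horizontal axis) with TGF-β (top), in KO1 (middle) and in KO2 (bottom) against WT, filled where called. HOXD10 and HOXD11 stand above 0 in both clones and HOXA4 below, and HOXB8 and HOXD8 are the filled points with TGF-β.

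The clones were also compared with each other, which tests whether their changes from WT differ. HOXD11 was higher in KO1 (1.02, SE 0.12, adjusted p = 3.08e-05), and HOXA7 (-1.38, SE 0.39, adjusted p = 0.0264) and HOXB13 (-3.32, SE 0.72, adjusted p = 0.00572) were lower. This is 1 of 28 members higher (3.57%), where 2.48% of all tested genes were, and 2 lower (7.14%), where 4.49% were. HOXB13 was at 3.80 and 0 in KO1 and at 24.3 and 17.8 in KO2, with WT at 8.93 and 4.98, so few reads lie behind it. HOXD10 differed by 0.54 (adjusted p = 0.00249) and HOXB2 by 0.46 (adjusted p = 0.0223), both under the fold threshold. The difference in HOXD11 was under the fold threshold with the same total in every library (0.84), with quantile normalization (0.96) and without KO1 replicate 2 (0.97), where no member was called, and its adjusted p was 0.0576 with only the libraries compared in the fit.

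Against TGF-β-treated cells, KO cells (the mean of both clones) had 7 of 28 members called higher (25%), where 10.3% of all tested genes were, and 2 called lower (7.14%), where 9.83% were. HOXB8 differed most, at 880 to 994 in the clones against 183 and 195, a log2 difference of 2.30 (SE 0.09, adjusted p = 4.74e-11). HOXB7 differed by 1.46, HOXC10 and HOXD11 by 1.30 each, HOXD10 by 1.18, HOXD8 by 1.10 and HOXB2 by 1.01. HOXB2 was under the fold threshold with the same total (0.93), with quantile normalization (0.96), without TGF-β replicate 1 (0.87) and without KO2 replicate 1 (0.98). HOXC10 had means of 180 in KO cells and 70.8 with TGF-β. HOXA4 (-1.43) and HOXA3 (-1.30, means 561 and 1367) were lower. The lower pair were anterior HOXA genes, and the higher genes lay in HOXB, HOXC and HOXD. HOXB8 and HOXD8 had fallen with TGF-β, and HOXB2, HOXD10 and HOXD11 had risen in KO1.

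Rescue asks whether returned SETD2 changes the HOX code of KO cells, with KO2 taken as the parental clone. With the mean of KO1 and KO2 as reference 5 members were called, all lower. In Rescue1 and Rescue2 the 4 tested HOXD genes were lower than in KO2. HOXD11 was at 349 and 403 in Rescue1 and 324 and 386 in Rescue2, against 723 and 730 in KO2. The rescue clones overlapped the WT libraries at 376 and 401. Its log2 change from KO2 was -0.99 (SE 0.10, adjusted p = 2.3e-06), just short of the fold threshold. HOXD10 was at 638 and 585 in Rescue1 and 558 and 573 in Rescue2, with a change of -0.97 (SE 0.09, adjusted p = 1.04e-06), also short of it. HOXD3 fell by 1.15 (SE 0.23, adjusted p = 0.000999), from a mean of 315 in KO2 to 143, and HOXD8 changed by -0.65 (adjusted p = 0.0156). HOXD3 and HOXD8 had not passed the test in KO2 against WT. The summed level of HOXD was 0.516 times that of KO2.

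HOXB7 and HOXB13 were the other members called lower. HOXB7 went from a mean of 874 in KO2 to 405 (-1.12, SE 0.13, adjusted p = 1.05e-05) and HOXB13 from 21.1 to 1.72 (-3.44, SE 0.62, adjusted p = 0.000538), a level at which both groups rest on few reads. In all 3 of 28 members (10.7%) were called lower, where 9.65% of all tested genes were, and 0 higher, where 7.84% were. At any fold 12 members (42.9%) passed the adjusted p, where 34.5% of all did, 2 of them higher (HOXA3 at 0.32 and HOXB3 at 0.24). HOXA4, lower in both KO clones, was at 148 and 158 in Rescue1 and 124 and 109 in Rescue2 and did not pass the test against KO2. HOXA11 changed by -0.62 (adjusted p = 0.0302). With the same total in every library the median of all tested genes shifted by 0.29, and 1 member was called. Serum was 10% in the rescue clones and 2% in KO2. The rescue clones also went through transduction, selection and a further cloning, which cannot be told apart from returned SETD2.

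The transduced eGFP line was grown in the serum of the rescue clones and carries SETD2 (2947 and 3128 normalized counts). It is a bulk WT line under puromycin. Rescue1 and Rescue2 are single-cell clones of KO cells under blasticidin, with SETD2 at 9764 to 10445. Cloning, KO origin, selection and SETD2 level cannot be told apart here. Against the eGFP line the rescue clones had 5 of 28 members called lower (17.9%), where 6.66% of all tested genes were. None was called higher, where 6.47% of all were. The lower members were HOXB13 (-2.56, means 1.72 and 10.9), HOXA13 (-1.67, means 17.2 and 53.2), HOXD8 (-1.58, means 188 and 558), HOXB3 (-1.05, means 1579 and 3263) and HOXD11 (-1.03, means 365 and 743). At any fold 12 members (42.9%) passed the adjusted p, where 29.5% of all did, and all 12 were lower. Without eGFP replicate 1 HOXA13 and HOXB3 lost their calls, at an adjusted p of 0.0567 and a log2 change of -0.998, and 3 were called. Without eGFP replicate 2 the adjusted p of HOXB13 was 0.0531 and 5 were called.

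The libraries labelled KO2 rescue, which had no more SETD2 than KO2, had 0 of 28 members called against KO2, by limma's test with or without adjustment of p. Of all tested genes 1.65% were called higher and 2.52% lower. At any fold 5 members (17.9%) passed the adjusted p, where 10.3% of all did. HOXD11 was at 488 and 443 (-0.64, adjusted p = 0.002), HOXD10 at 762 and 847 (-0.52, adjusted p = 0.00458), HOXD8 at 184 and 132 (-0.90, adjusted p = 0.0162), HOXB2 at 660 and 583 (-0.54, adjusted p = 0.0124), and HOXA3 at 588 and 663 (0.34, adjusted p = 0.0338). The 3 HOXD genes and HOXB2 were below KO2 in these libraries, which had 2% serum and no added SETD2. The cause was not tested. Without KO2_Rescue replicate 1, 1 member was called.

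**Figure D4:**
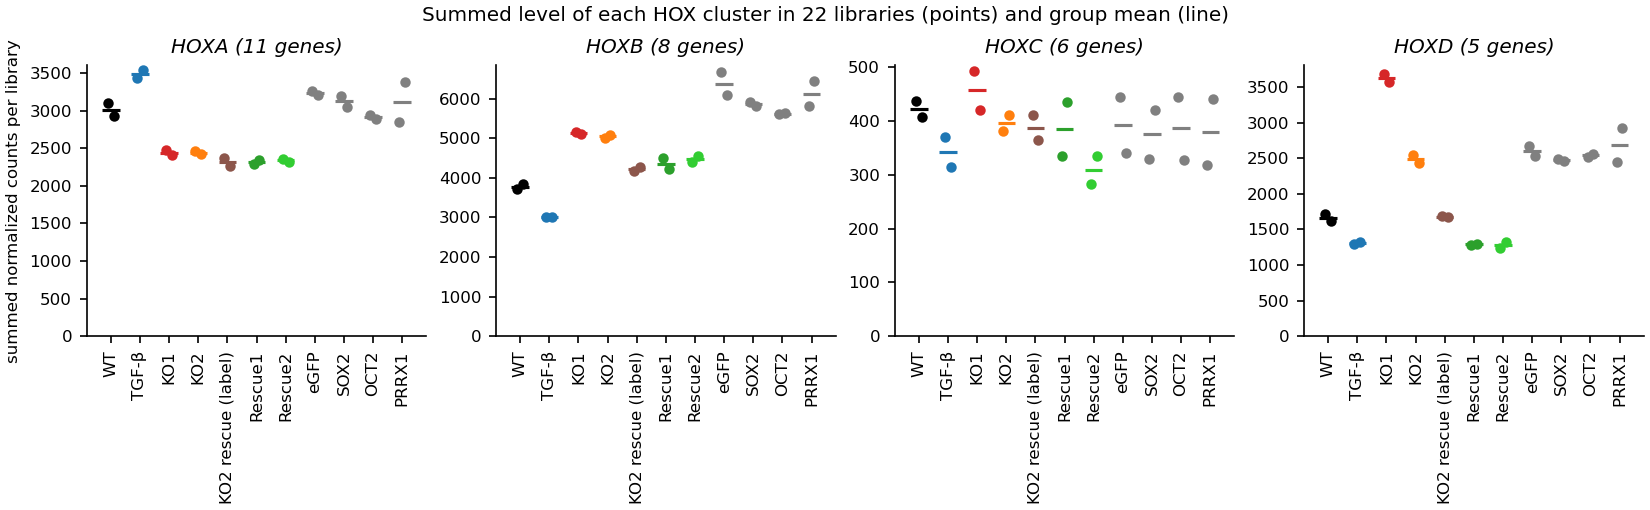
Summed normalized counts of the members of each cluster in each library (points) with the group mean (line). HOXD is highest in KO1, at 2.17 times WT, and lowest in the rescue clones and with TGF-β, and HOXB is highest in the eGFP line, at 1.69 times WT.

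The eGFP line against WT differs in the vector, selection and serum, and these cannot be told apart. HOXB3 was at 3380 and 3146 in the eGFP line against 1306 and 1471 in WT, a log2 change of 1.23 (SE 0.09, adjusted p = 2.65e-07). HOXA5 was at 73.6 and 42.2 against 0 in both WT libraries (adjusted p = 0.0099). The eGFP mean of HOXA5 was 21.7 times the level of 3 reads per WT library. This ratio allows for counting error only and is not a lower bound. Duplicates of HOXA5 lay far apart in the PRRX1 line (15.0 and 77.5), KO1 (0 and 20.7) and TGF-β-treated cells (0 and 23.1). Pairs in other groups lay closer, such as 41.1 and 28.2 in the SOX2 line. HOXA13 had means of 53.2 and 15.9 (1.72, SE 0.49, adjusted p = 0.0166), and the adjusted p was 0.12 without WT replicate 1 and 0.0735 and 0.065 without eGFP replicates 1 and 2. HOXA5 had an adjusted p of 0.0694 without eGFP replicate 1. HOXA4 fell from a mean of 329 to 148 (-1.14, SE 0.19, adjusted p = 0.000312). Without WT replicate 1, 6 members were called, and without eGFP replicate 1, 2 were. The calls were 3 of 28 members higher (10.7%), where 6.49% of all tested genes were, and 1 lower (3.57%), where 6.24% were.

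At any fold, 10 members (35.7%) passed the adjusted p, where 26.6% of all did. They included several of those that moved in KO cells. HOXD11 was at 736 and 751 in the eGFP line, against 723 and 730 in KO2, HOXD10 at 1115 and 1062 against 1233 and 1076, and HOXB8 at 990 and 937 against 880 and 929. Their log2 changes from WT were 0.94 (adjusted p = 3.03e-05), 0.67 (adjusted p = 0.000243) and 0.94 (adjusted p = 1.29e-05). HOXA4 at 146 and 150 was also within the range of the KO2 libraries, 126 and 160. HOXB2, in contrast, was at 562 and 582, nearer to WT than to KO2, and HOXB3 and HOXD8 were high in the eGFP line and not in KO cells. The eGFP line and the KO clones were compared with the same WT libraries. By paralog number the medians in the eGFP line were -0.44 over members 1 to 4, 0.23 over 5 to 8 and 0.62 over 9 to 13 (9 of 10 above 0).

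**Figure D5:**
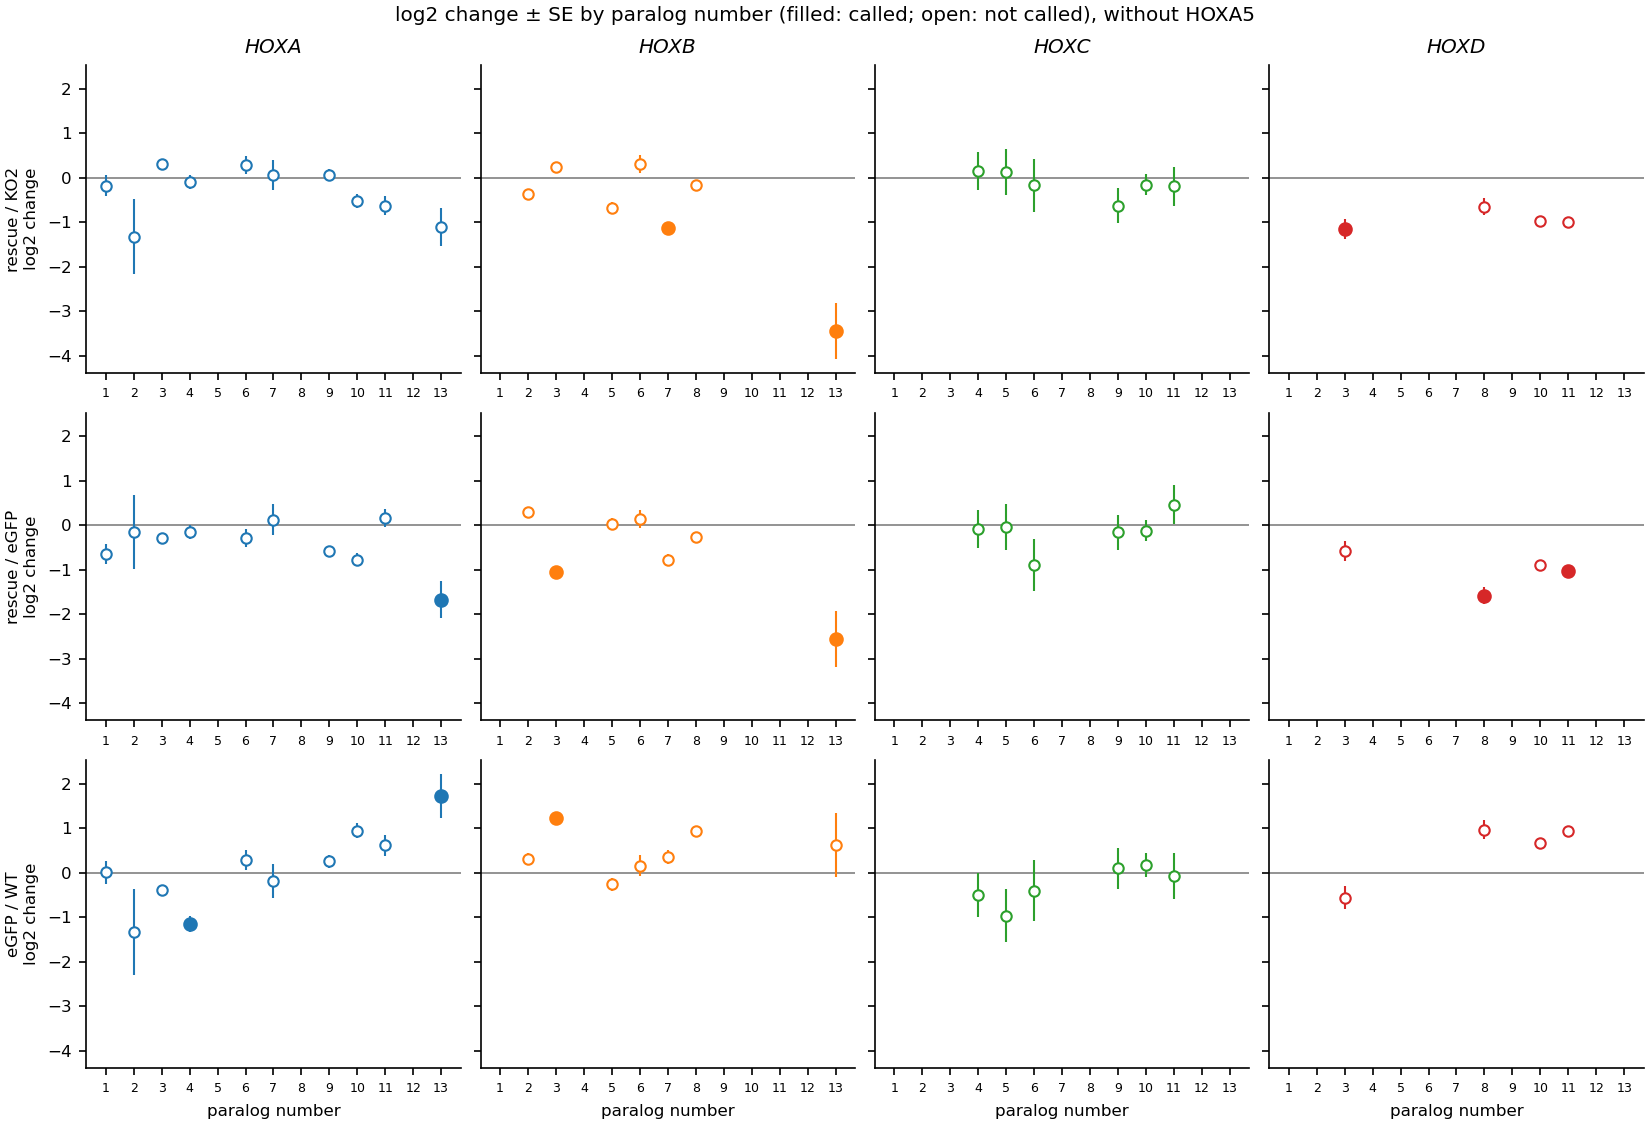
Log2 change ± SE by cluster and paralog number for the rescue clones against KO2 (top), the rescue clones against the eGFP line (middle) and the eGFP line against WT (bottom), filled where called, without HOXA5, which was at 0 in WT. The 4 HOXD points lie below 0 in the upper and middle rows.

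SOX2, OCT2 and PRRX1 were tested as effectors by ectopic expression, and their lines were compared with the eGFP line. No HOX gene was called in any of the 3 by limma's test with adjusted p. Of all tested genes 0.0137% were called higher and 0.00686% lower with SOX2, 0.0274% and 0.00686% with OCT2, and 0.0343% and 0.00686% with PRRX1. Without adjustment of p the members past the threshold and the fold numbered 0, 0 and 1, the last being HOXA2, which was at 0 and 4.96 with PRRX1 and 6.39 and 16.3 with eGFP. HOXB3 stayed at 2780 to 3261 in the 3 lines and HOXD11 at 665 to 807. The median log2 change of the members was -0.11 with SOX2, -0.10 with OCT2 and -0.04 with PRRX1.

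The partners and regulators of HOX genes were followed as lists. Of 9 TALE cofactors 7 were tested. With TGF-β none was called, where 3.58% of all tested genes were called higher and 4.26% lower. In KO1 2 were called higher, where 12.0% of all were, and 1 of these also in KO2, where 9.02% were. MEIS3 rose from a mean of 77.3 in WT to 564 in KO1 (2.84, adjusted p = 1.51e-07), and KO2 stood at 209 (1.42, adjusted p = 0.000253). MEIS2 rose in KO1 by 1.24 (adjusted p = 0.00662).

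Of 18 regulators 15 were tested. With TGF-β 1 was called lower and 0 higher, where 4.26% and 3.58% of all tested genes were. In KO1 3 were higher and 2 lower (12.0% and 13.1% of all), and in KO2 1 higher and 1 lower (9.02% and 7.29% of all). In the rescue clones against KO2 3 were higher and 2 lower (7.84% and 9.65% of all). EZH2, the methyltransferase of Polycomb, had a mean of 945 in WT. It fell to 448 with TGF-β (-1.07), to 346 in KO1 (-1.44) and to 293 in KO2 (-1.68), and it rose to 805 in the rescue clones against KO2 (1.45, adjusted p = 4.25e-08). SUZ12, its partner in that complex, went the other way in KO1, from 25.8 to 161 (4.16, SE 1.38, adjusted p = 0.0263). In KO2 SUZ12 stood at 76.9 (adjusted p = 0.0795). The fitted change of SUZ12 in KO1 was larger than its means give, so its WT libraries lay far apart and the change is uncertain. RARG, a retinoic acid receptor, was also opposite to EZH2 in the clones, at 86.7 in WT, 503 in KO1, 283 in KO2 and 50.3 in the rescue clones, with changes of 2.54, 1.71 and -2.52. The part of these genes in the HOX values was not tested.

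Of the 24 protein-coding genes that flank the clusters, 3 on each side, 21 were tested. None was called with TGF-β, where 3.58% of all tested genes were called higher and 4.26% lower. In KO1 1 was higher and 4 were lower, SNX10, CBX1, HNRNPA1 and HNRNPA3, where 12.0% and 13.1% of all tested genes were, and in KO2 none was higher and 2 were lower, where 9.02% and 7.29% of all were. CALCOCO1, the nearest of these genes before HOXC, rose in KO1 (1.06). SNX10, on the far side of SKAP2 from HOXA, fell (-2.66 in KO1 and -1.75 in KO2). LNPK was also lower in KO2 (-1.06). HNRNPA3 fell by 1.37 in KO1, where HOXD10 and HOXD11 rose. It starts at 177212694, on the far side of MTX2 from the HOXD members, which end at 176173102. Levels of the fibroblast list also differed between groups. Its 7 genes summed to 831 and 12437 in WT, 46389 to 47809 with TGF-β, 223367 to 236448 in KO1 and 98938 to 102552 in KO2, in KO cells mostly DCN, and to 818 to 1524 in Rescue1 and Rescue2, with COL3A1 at 0 in KO1. The order KO1, KO2, rescue clones is that of HOXD10 and HOXD11. The eGFP line had a sum of 1961 to 2343 with HOXD11 at the level of KO2, and TGF-β-treated cells had the higher sum given above with HOXD11 near WT (0.11). With TGF-β the sum was mostly COL1A1 (46598 and 45007), so the sums with TGF-β and in KO cells rest on different genes. The part of the list in the HOX values was not tested.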

How the data were processed

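Stranded mRNA libraries of 22 samples were quantified by the authors with Salmon 1.9.0 against Ensembl release 94 transcripts (GRCh38) and handled with DESeq2 1.26.0. The authors deposited log2 values (11.32 to 21.28), which behave as variance-stabilized normalized counts. The transformation was inverted to normalized counts, and since these are not raw counts no count test was run. Reads per library were approximated at 7600000 to 18700000. Symbols and positions were taken from GENCODE 44 and promoters from RefSeq GRCh38.p14.

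The test was limma 3.58.1 in R 4.3.3 (trend) on log2 of the normalized count plus a pseudocount of 1, with p adjusted by Benjamini-Hochberg, in 1 fit of all 22 libraries. Genes reaching 10 normalized counts in 2 or more libraries were tested. A log2 change is on this scale and understates the change of low genes. Groups were taken from the labels. Genes named in full were the members called with TGF-β or in a KO clone and the member of each cluster with the highest mean per kilobase. The procedure was tested on simulated data. The members, lists and tests were chosen with earlier results of these data known. Results of 1 cofactor are not reported here. Alternatives were pseudocounts of 0.5 and 5, other filters, scalings, libraries and a replicate block. Python 3.11.15, pandas 2.3.3, numpy 2.4.6 and matplotlib 3.10.9 were used.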

Additional observations from a re-analysis of the deposited data

Results flagged for a closer look

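The members HOXD11, HOXA7 and HOXB13 differed in their change from WT between the KO clones, by limma's test of the difference itself. HOXD11 rose more in KO1 than in KO2, by 1.02 on the log2 scale, in 2 of 2 libraries, and by 0.84 with the same total in every library and 0.96 with quantile normalization, both under the fold threshold. HOXA7 was lower in KO1 by 1.38, a log2 difference of -1.38. HOXB13 differed by -3.32, at most 3.80 normalized counts in KO1 and at least 17.8 in KO2. The call was weaker in 5 of 12 alternatives for HOXA7, 3 of 12 for HOXB13 and 5 of 13 for HOXD11.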

How the results depend on the processing

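Of 34 calls of a member in a comparison, 34 stayed with pseudocounts of 0.5 and 5, without the filter and with a replicate block, 26 with the same total in every library, 32 with quantile normalization and 23 with only the libraries compared. No call reversed. On the deposited log2 values, whose scale compresses low counts, 0 passed the fold threshold in any comparison and all 34 passed the adjusted p. Calls were 5 with the same total for TGF-β and 0 with only its libraries. For KO2 they were 1 with only its libraries. For KO1 against KO2 they were 1 with a mean of at least 50, 0 with only its libraries and 5 without adjustment. For the rescue clones against KO2 they were 1 with the same total, 5 with the mean of KO1 and KO2 as reference and 7 with Rescue2 alone. For the rescue clones against eGFP they were 3 with a mean of at least 50, with the same total and with Rescue2 alone. For eGFP against WT they were 2 with a mean of at least 50 and with only its libraries, and for PRRX1 1 without adjustment. The cause was not tested.

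Leaving out 1 library in turn gave 2 to 3 calls with TGF-β, 4 to 9 in KO1, 1 to 4 in KO2 (4 without WT replicate 1, 1 without WT replicate 2), 0 to 3 for KO1 against KO2 (0 without KO1 replicate 2), 8 to 9 for KO against TGF-β, 0 to 1 for the libraries labelled KO2 rescue (1 without replicate 1), 3 to 5 for the rescue clones against KO2 (5 without replicate 2 of either clone), 3 to 5 against eGFP (3 without eGFP replicate 1), 2 to 6 for eGFP against WT (2 without eGFP replicate 1) and 0 for the other lines. A lone library was assumed to vary like the other groups. Replicate numbers did not pair the samples, since deviations of same-numbered libraries correlated at -0.08 to 0.05 over 55 pairs of groups, and the replicate block gave 2 calls for TGF-β, 7 for KO1 and 2 for KO2.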
